A study of Mus musculus with 8 samples.

Results

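Chemokine genes of mouse bone marrow basophils and of their precursors were followed in 8 RNA sequencing libraries. The 8 genes, Ccl3, Ccl4, Ccl6, Ccl9, Ccl5, Ccl2, Cxcl2 and Cxcl10, were taken as a set by gene name and are 8 of the 55487 genes quantified. Of them, 5 passed the filter on low values (2 or more libraries at a TPM of 1 or above) and were tested, and Ccl2, Cxcl2 and Cxcl10 did not pass and are described by their values. The 5 would also have passed on the pre-Baso libraries alone. TPM is a gene's length-scaled share of all transcripts, on a scale common to all libraries.

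Both populations came from bone marrow of C57BL/6J mice. Pre-Baso, the precursor stage, was sorted as lineage-negative, CD34-negative, ckit-negative, CD200R3+ cells with high MAR1 staining. Basophils were sorted by the same markers with intermediate MAR1 staining, where MAR1 is an antibody to the alpha chain of the IgE receptor. Each population was taken from control mice (genotype wild type, label ctrl), which were littermates, and from mice labelled floxed out (genotype Nfil3-depleted). Nfil3 encodes a basic leucine zipper repressor and activator of transcription with roles in several immune lineages. The labels name no Cre driver and give no age, and Mcpt8, a granule protease gene used as a basophil marker, was itself at 1.98 to 6.04 TPM in the 4 floxed out libraries against 969 to 7888 TPM in the 4 controls. Each of the 4 groups held 2 libraries, described as biological duplicates.

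Chemokines are small secreted proteins that guide leukocytes along gradients by binding receptors coupled to G proteins. Ccl3 and Ccl4 (also called MIP-1 alpha and MIP-1 beta) are released by activated basophils and mast cells, and Ccl3 is a ligand of the receptor Ccr1. Ccl6 and Ccl9 are rodent CC chemokines that act through Ccr1. Ccl5 (RANTES) binds Ccr1 and Ccr3, among others, and attracts eosinophils, T cells and monocytes. Ccl2 attracts monocytes through Ccr2, Cxcl2 attracts neutrophils through Cxcr2, and Cxcl10 is an interferon-induced ligand of Cxcr3. Many chemokine genes are quickly induced through NF-kappaB and AP-1 factors when a myeloid cell is activated.

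Every one of the 5 tested genes lies in one cluster on chromosome 11. In mm10, Ccl5 spans 83525778 to 83530518, Ccl9 83572919 to 83578636, Ccl6 83587882 to 83593087 and Ccl3 83647844 to 83649355, all on the minus strand. Ccl4 spans 83662584 to 83664683 on the plus strand. The stretch from Ccl5 to Ccl4 is 138.9 kb long and holds 7 annotated genes. The other 2 are E230016K23Rik, a noncoding transcript on the opposite strand that overlaps Ccl6, and Rpl9-ps1. Ccl2 lies on the same chromosome, outside the cluster, from 82035571 to 82037453 on the plus strand. Cxcl2 (90903871 to 90905938, plus strand) and Cxcl10 (92346638 to 92348889, minus strand) lie on chromosome 5.

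Upstream sequence is shown for Ccl3, Ccl6 and Ccl9, because these cluster members rose together from pre-Baso to basophils. RefSeq's promoter table (build GRCm38.p6) held 5 of the 8 genes: these 3, Cxcl2 and Cxcl10. Printed are the 250 bases before the annotated start, read on the gene's own minus strand at chr11:83649379-83649628 for Ccl3, chr11:83593088-83593337 for Ccl6 and chr11:83578637-83578886 for Ccl9. Capitals mark the 17 bases over which Ccl6 and Ccl9 aligned best.
Ccl3: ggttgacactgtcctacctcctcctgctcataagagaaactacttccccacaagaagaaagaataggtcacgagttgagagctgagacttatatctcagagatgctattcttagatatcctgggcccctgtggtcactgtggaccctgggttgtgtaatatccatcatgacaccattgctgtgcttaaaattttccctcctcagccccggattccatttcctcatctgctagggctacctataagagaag
Ccl6: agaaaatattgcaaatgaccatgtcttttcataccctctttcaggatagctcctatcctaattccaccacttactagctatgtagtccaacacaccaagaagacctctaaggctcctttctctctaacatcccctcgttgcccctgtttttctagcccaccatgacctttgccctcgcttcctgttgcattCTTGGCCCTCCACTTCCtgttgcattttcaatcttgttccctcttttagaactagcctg
Ccl9: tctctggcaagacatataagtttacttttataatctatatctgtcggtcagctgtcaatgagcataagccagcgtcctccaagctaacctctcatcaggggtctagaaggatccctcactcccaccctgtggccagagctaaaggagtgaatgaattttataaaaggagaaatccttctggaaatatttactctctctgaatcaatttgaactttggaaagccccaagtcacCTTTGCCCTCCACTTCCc

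Of the 17 bases in capitals, 16 were identical in Ccl6 and Ccl9. Their longest shared run, GCCCTCCACTTCC, is 13 bases long and occurs in 0.00913% of the 32851 promoter windows of 250 bases. The run was chosen as the longest match of Ccl6 and Ccl9, whose windows are among those searched. Its low share thus follows in part from that choice. Relative to the annotated start, the stretch lies at -59 to -43 in Ccl6 and at -18 to -2 in Ccl9. The NFIL3 motif TTACNTAA, read on both strands, matched 0 of the 5 windows, and 2.06% of all windows hold it. The kappaB motif matched once in Ccl9, 3 times in Cxcl2 and 4 times in Cxcl10, with overlapping matches counted, and 45.8% of all windows hold it. It had 0 matches in Ccl3 and Ccl6. The AP-1 motif TGANTCA matched once in Ccl9 and once in Cxcl10 (6.75% of all windows). The TATA box TATAAA matched 3 times in Ccl9 only, including an overlapping pair on opposite strands (12.4% of all windows). These are matches of letters, and no binding was measured.

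The libraries held 271.7 to 398 assigned megabases, and correlations of log2(TPM + 1) across 12511 genes between duplicates were 0.962 to 0.979 (genes are not independent replicates). Nfil3 stood at 6.61 and 7.65 TPM in control pre-Baso and at 0 and 0.624 TPM in floxed out pre-Baso. In basophils it stood at 20.5 and 22.5 TPM in controls and at 0.853 and 1.32 TPM in floxed out mice. Its log2 change between genotypes was -2.67 ± 0.25 in pre-Baso and -3.44 ± 0.25 in basophils (SE; limma adjusted p = 0.00896 and 0.00151). The basophil markers Prss34 and Cd200r3 were present in all 8 libraries, at 2667 TPM or more and at 223 TPM or more. The basophil libraries numbered 1 of both genotypes stood apart in markers of other cells. Cd74, the MHC class II invariant chain, reached 332.5 and 302.3 TPM there, against 7.32 and 14.1 TPM in the libraries numbered 2. Values without both libraries are therefore given for the chemokines and for the receptor, pathway, basophil identity and other myeloid cell lists below. In that reduced fit each basophil group holds 1 library, which is assumed to vary like the other groups.

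Ccl6 was the most abundant of the chemokine transcripts in every library. Its TPM was 143.9 and 215.5 in control pre-Baso and 248.8 and 289.8 in floxed out pre-Baso. In basophils it was 1713 and 1726 in controls and 1433 and 1348 in floxed out mice. Every basophil library thus lay above every pre-Baso library, and the genotypes did not overlap in either population. Of all genes tested, 36.4% in controls and 36.6% in floxed out mice lay higher in basophils without overlap. Floxed out libraries lay above controls in pre-Baso for 11.2% of genes, and below them in basophils for 21.4%. With a group mean of 1719 ± 9.54 TPM (SD, n = 2), Ccl6 ranked 9 among 21974 protein-coding genes in control basophils. It ranked 10 in floxed out basophils, 110 in floxed out pre-Baso and 160 in control pre-Baso. Between 87.8% and 97.0% of its TPM came from the protein-coding transcript, whose 4 exons were all covered.

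Ccl3 ranked next among the chemokines in every library. It stood at 104.6 and 134.7 TPM in control pre-Baso and at 110.1 and 149.8 TPM in floxed out pre-Baso. Control basophils had 414.2 and 282.0 TPM, and floxed out basophils 279.1 and 299.2 TPM. Populations did not overlap, whereas the genotypes did in both. Of all genes tested, 36.4% in controls and 36.6% in floxed out mice lay higher in basophils without overlap. The first control basophil library was the highest of the 8.

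Ccl9, the neighbour of Ccl6, was lower but had the same order of groups. Its TPM was 41.8 and 55.9 in control pre-Baso, 54.1 and 63.5 in floxed out pre-Baso, 222.2 and 228.9 in control basophils, and 183.4 and 181.0 in floxed out basophils. The duplicates of basophils lay close together, with group means of 225.5 ± 4.71 and 182.2 ± 1.68 TPM (SD, n = 2). The first of its 4 exons, counted from the 5′ end, had the lowest coverage: 6.51 to 8.77 reads per base in pre-Baso and 27.2 to 35.2 in basophils. Its exon 3 had 33.9 to 41.4 and 119 to 144 reads per base.

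Ccl4 was the lowest of the cluster's 4 abundant chemokines. It had 18.1 and 26.5 TPM in control pre-Baso, 24.7 and 33.6 in floxed out pre-Baso, 144.7 and 111.8 in control basophils, and 97.3 in both floxed out basophil libraries. The populations were separate, and so were the genotypes in basophils but not in pre-Baso. Of all genes tested, 36.4% in controls and 36.6% in floxed out mice lay higher in basophils without overlap. In basophils, 21.4% lay lower in floxed out mice than in controls without overlap. The descending order Ccl6, Ccl3, Ccl9, Ccl4, Ccl5 held in each of the 8 libraries, and the ranges of neighbours in that order did not overlap within any group.

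**Figure D1:**
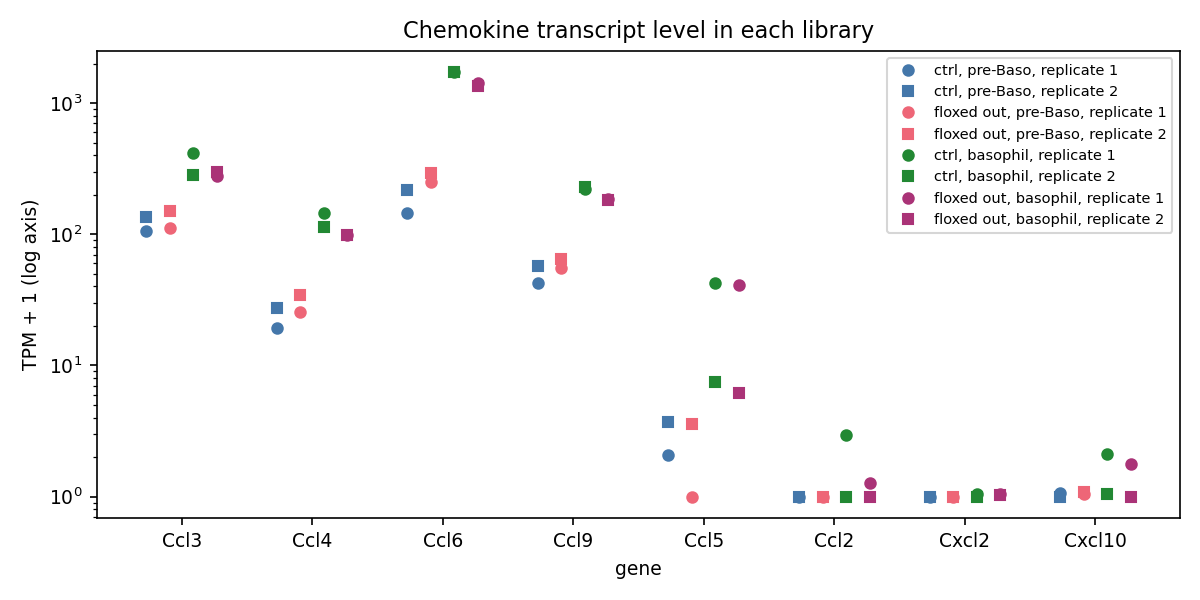
TPM + 1 (log axis) of the 8 chemokine genes; each point is 1 library, coloured by group, with a circle for replicate 1 and a square for replicate 2. Ccl3, Ccl4, Ccl6 and Ccl9 are higher in all basophil libraries than in all pre-Baso libraries, Ccl5 splits by replicate within basophils, and Ccl2, Cxcl2 and Cxcl10 lie near 1 on this axis, which is a TPM of 0.

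The comparison of basophils with pre-Baso shows what changes between the 2 stages. In control mice Ccl6 rose by 3.28 ± 0.18 on the log2 scale (SE; adjusted p = 0.000111 in limma), the 10th highest change among 12511 genes. Ccl4 rose by 2.48 ± 0.23 (adjusted p = 0.000477), Ccl9 by 2.20 ± 0.17 (adjusted p = 0.000381) and Ccl3 by 1.52 ± 0.22 (adjusted p = 0.00281). On the TPM + 1 scale these are rises of 9.71-fold, 5.59-fold, 4.59-fold and 2.86-fold. Of the 5 tested chemokines 4 were called higher, beside a background of 12.6% of all genes called higher in this comparison. All 5 had higher values in each basophil library than in each pre-Baso library, as did 36.4% of all genes. The median change over the 5 was 2.48, against 0.08 over all genes tested. All 4 calls held when any single library was left out, with adjusted p of 0.0261 at most. In bulk libraries, a different number of expressing cells and a different amount of RNA per cell cannot be told apart.

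In floxed out mice the same 4 genes were called higher, in libraries not shared with the control comparison. Ccl6 rose by 2.37 ± 0.18 (SE; limma adjusted p = 0.00146), Ccl4 by 1.72 ± 0.23 (adjusted p = 0.00577), Ccl9 by 1.62 ± 0.17 (adjusted p = 0.00469) and Ccl3 by 1.16 ± 0.22 (adjusted p = 0.0182). Here 6.79% of all genes were called higher, and 36.6% lay higher without overlap, among them all 5 tested chemokines. The median change was 1.72 over the 5, against 0.10 over all genes. Without the first floxed out pre-Baso library 1 of the 4 calls was left, that of Ccl6. The adjusted p was then 0.129 for Ccl3, 0.0601 for Ccl4 and 0.0553 for Ccl9. The Ccl3 call also ended without either floxed out basophil library (adjusted p = 0.0835 and 0.076) and with no filter on low values (adjusted p = 0.0949).

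Markers of other myeloid cells were also higher in the basophil libraries. The summed level of 14 monocyte and macrophage markers was 173.0 to 199.3 TPM in control pre-Baso, 263.8 to 275.3 in floxed out pre-Baso, 329.7 to 932.1 in control basophils and 397.5 to 851.3 in floxed out basophils. None of the 14 was at 0 in all libraries. Over 13 neutrophil markers the sums were 1047 to 1174, 1079 to 1464, 1487 to 2619 and 1469 to 2323 TPM in the same order. The part of these cells in the chemokine rises was not tested. Ccl6 in the library numbered 1 was 0.992 times that in number 2 in controls and 1.06 times in floxed out mice. The ratio was 0.971 and 1.01 for Ccl9, 1.29 and 1.0 for Ccl4, and 1.47 and 0.933 for Ccl3.

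Without both basophil libraries numbered 1, the log2 changes in control mice stayed called for 3 chemokines and that of Ccl3 became 1.24 (adjusted p = 0.0505). In floxed out mice the changes were then 2.32 for Ccl6, 1.72 for Ccl4, 1.61 for Ccl9 and 1.21 for Ccl3, with 0 calls left (adjusted p from 0.0816 to 0.13). Of 12511 genes, 4 were called in floxed out mice in that reduced fit, 1 of them also called with all libraries.

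**Figure D2:**
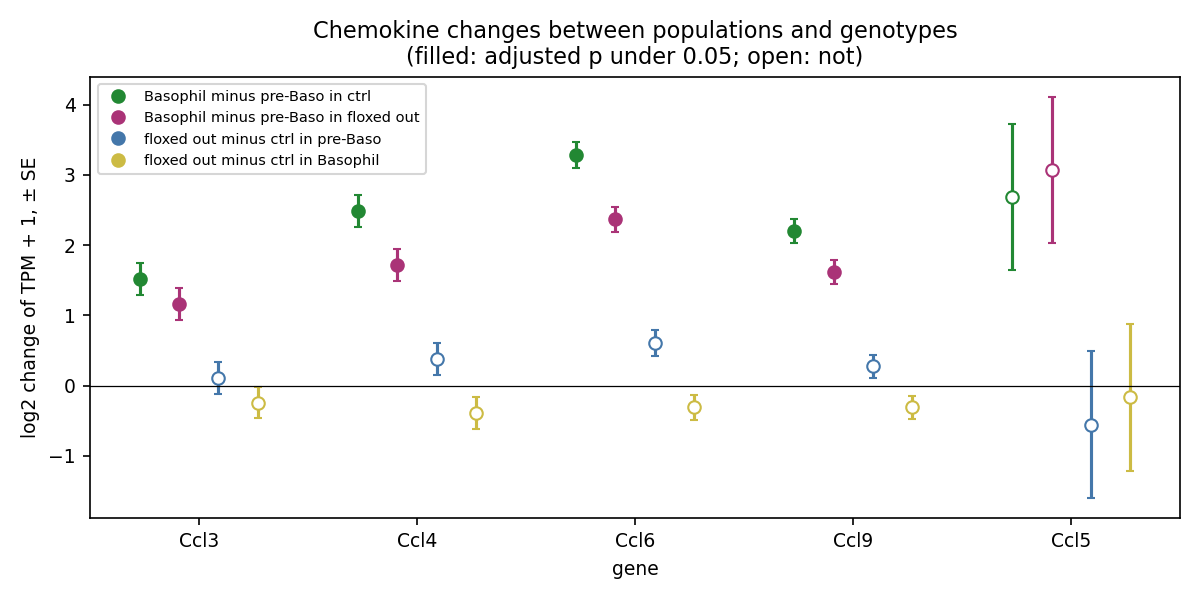
Log2 change of TPM + 1 with its standard error for the 5 tested chemokines in 4 comparisons; filled points passed an adjusted p of 0.05 and open points did not. The 2 population comparisons are filled for Ccl3, Ccl4, Ccl6 and Ccl9, from 1.16 to 3.28, while the genotype comparisons lie between -0.55 and 0.61 and are all open.

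The balance within each pair of related genes differed between the populations. The ratio of Ccl6 to Ccl9 was 3.45 and 3.85 in control pre-Baso, 4.6 and 4.56 in floxed out pre-Baso, 7.71 and 7.54 in control basophils, and 7.81 and 7.45 in floxed out basophils. The ratio of Ccl3 to Ccl4 was 5.77 and 5.09 in control pre-Baso and 4.46 in both floxed out pre-Baso libraries. In basophils it was 2.86 and 2.52 in controls and 2.87 and 3.08 in floxed out mice. Basophils therefore held more Ccl6 per Ccl9 and less Ccl3 per Ccl4 than pre-Baso in every library, with genotypes overlapping in basophils for the first ratio only. In pre-Baso both ratios of the floxed out libraries lay between those of control pre-Baso and those of basophils. The ratios are a description, with no test.

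**Figure D3:**
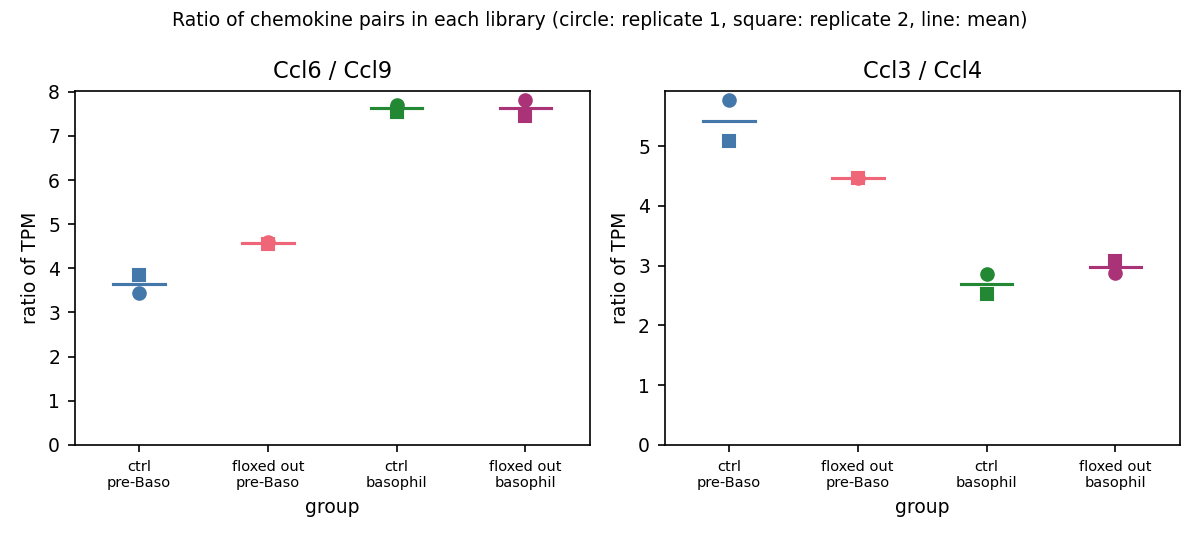
Ratio of TPM of Ccl6 to Ccl9 (left) and of Ccl3 to Ccl4 (right) in each library, with a line at the group mean. The Ccl6 to Ccl9 ratio lies between 3.45 and 4.6 in pre-Baso and between 7.45 and 7.81 in basophils, and the Ccl3 to Ccl4 ratio lies between 4.46 and 5.77 in pre-Baso and between 2.52 and 3.08 in basophils.

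Summed over the 8 genes, chemokine transcripts made up 0.166% and 0.195% of the protein-coding TPM in control pre-Baso and 0.214% and 0.283% in floxed out pre-Baso. In basophils the share was 1.21% and 1.2% in controls and 1.07% and 0.97% in floxed out mice. Ccl6 alone gave 46.5% to 56.8% of the sum in pre-Baso and 67.5% to 73.3% in basophils. The share of the sum that came from the 4 abundant genes was 97.99% or more in every library.

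Ccl5 was far lower than its neighbours in the cluster and spread widely between duplicates. It had 1.08 and 2.70 TPM in control pre-Baso, 0 and 2.57 in floxed out pre-Baso, 41.2 and 6.49 in control basophils, and 39.9 and 5.14 in floxed out basophils. All basophil libraries were above all pre-Baso libraries, an order found within controls for 36.4% of all genes and within floxed out mice for 36.6%. The basophil library numbered 1 exceeded number 2 by 6.35-fold in controls and by 7.76-fold in floxed out mice. The log2 change to basophils was 2.68 ± 1.04 in controls and 3.07 ± 1.04 in floxed out mice (SE; limma adjusted p = 0.101 and 0.098), so Ccl5 was not called in either. Leaving out the second control basophil library gave 3.93 (adjusted p = 0.0379), and leaving out both basophil libraries numbered 1 gave 1.43 in controls and 1.70 in floxed out mice (adjusted p = 0.353 and 0.338). Coverage lay on all 3 exons in basophils, at 1.39 to 22.4 reads per base on exon 1 and 3.36 to 19.2 on exon 3.

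Macrophage and antigen presentation genes were also higher in the libraries numbered 1, by ratios that differed from gene to gene. Of those named here, Ctss was nearest to Ccl5 in profile and the others were chosen after their values were seen. Ctss, which encodes the lysosomal protease cathepsin S, had 43.4 and 3.05 TPM in the control basophil libraries numbered 1 and 2, and 37.2 and 4.91 in the floxed out ones. The complement gene C1qb had 51.7 and 1.23 TPM in controls and 33.0 and 2.81 in floxed out mice, and the MHC class II gene H2-Aa had 141.7 and 1.92, and 129.1 and 6.56. Of 14 monocyte and macrophage markers, 14 were higher in number 1 in controls and 12 in floxed out mice. The 9 dendritic cell markers, among them the MHC class II genes, summed to 669.2 and 58.5 TPM in controls and 612.8 and 75.4 in floxed out mice. Eosinophil markers summed to 2665 and 35.4 TPM in controls, with the granule protein gene Prg2 at 2354 TPM in number 1, and to 193.6 and 31.1 TPM in floxed out mice. Of their 9 markers, 9 and 7 were higher in number 1. The counts were 12 and 11 of 13 for neutrophil, 8 and 9 of 10 for B and plasma cell, and 7 and 8 of 8 for erythroid markers. Of 8 megakaryocyte and platelet markers, 3 were higher in number 1 and 1 in number 2 in controls, against 1 and 6 in floxed out mice. Of 13 markers of T and NK cells, another known source of Ccl5, 4 were at 0 in all libraries, and 6 were higher in number 1 and 1 in number 2 in controls, against 3 and 4 in floxed out mice. Their sums were 71.2 and 54.6 TPM in controls and 57.4 and 78.6 in floxed out mice. The part of any of these cells in the Ccl5 values, and of eosinophils in those of the other chemokines, was not tested.

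**Figure D4:**
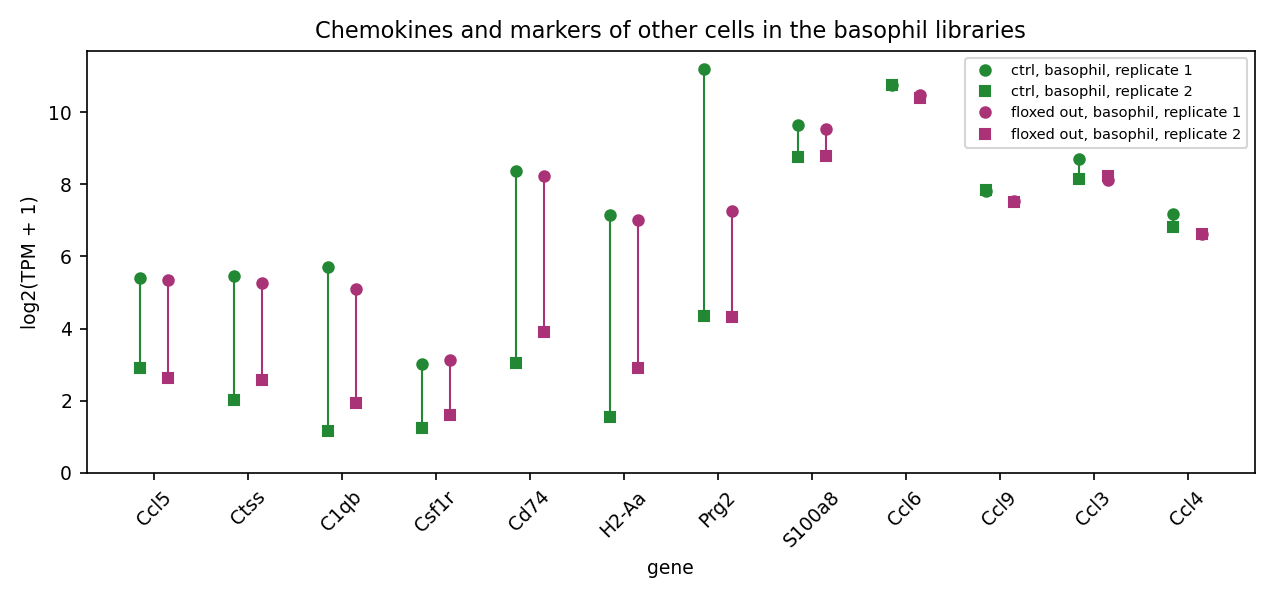
Log2(TPM + 1) in the 4 basophil libraries of Ccl5, of markers of other cells and of the 4 abundant chemokines; lines join the duplicates of a group. Ccl5, Ctss, C1qb, Csf1r, Cd74, H2-Aa and Prg2 differ between the libraries numbered 1 and 2 in both genotypes, whereas Ccl6, Ccl9, Ccl3 and Ccl4 lie close together, with ratios from 0.933 to 1.47.

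Ccl2, Cxcl2 and Cxcl10 were at or near 0. Ccl2 was listed at 0 in 6 libraries, at 1.97 TPM in the first control basophil library and at 0.276 TPM in the first floxed out one. The floxed out value came from a transcript annotated as a retained intron. Cxcl2 was listed at 0 in 5 libraries and reached 0.0558 TPM at most. Cxcl10 was at 1.13 and 0.763 TPM in the basophil libraries numbered 1 and at 0.0811 TPM or less elsewhere. All of the Cxcl2 and Cxcl10 signal lay on transcripts annotated as retained introns, and none on the protein-coding ones. Coverage of the 3 genes was at most 0.873 reads per base, and the files hold no read counts, so no limit of detection is given.

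The comparison of genotypes asks whether chemokine transcripts differ between floxed out and control mice. Mcpt8 was also far lower in all floxed out libraries, so depletion of Nfil3 and loss of Mcpt8 transcript cannot be told apart. In pre-Baso, 0 of 5 tested chemokines were called by limma, where 0.0639% of all genes were. An unadjusted p under 0.05 was found for 1 of the 5, and for 548 of 12511 genes. Ccl6 had a log2 change of 0.61 ± 0.18 (SE; adjusted p = 0.991), with both floxed out libraries above both controls, as in 11.2% of all genes. The changes were 0.38 ± 0.23 for Ccl4, 0.27 ± 0.17 for Ccl9, 0.11 ± 0.22 for Ccl3 and -0.55 ± 1.04 for Ccl5 (adjusted p = 1 for each). The median over the 5 was 0.27, against -0.04 over all genes. Leaving out one library at a time moved the change of Ccl6 between 0.32 and 0.90, and that of Ccl3 between -0.11 and 0.33.

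In basophils, limma called 0 of 5, where 0.056% of all genes were. An unadjusted p under 0.05 was found for 0 of the 5, and for 1065 of 12511 genes. The log2 changes were -0.38 ± 0.23 for Ccl4, -0.31 ± 0.18 for Ccl6, -0.31 ± 0.17 for Ccl9, -0.24 ± 0.22 for Ccl3 and -0.17 ± 1.04 for Ccl5 (SE; limma adjusted p from 0.684 to 0.984). Ccl4, Ccl6 and Ccl9 lay lower in both floxed out libraries than in both controls, as did 21.4% of all genes. The median over the 5 was -0.31, against -0.01 over all genes. Without both libraries numbered 1 the change of Ccl3 was 0.09. Averaged over both populations, the changes lay between -0.36 and 0.15, with 0 of 5 called by limma (0.0879% of all genes). At an unadjusted p under 0.05 were 0 of the 5, and 931 of 12511 genes. The signs of the averaged changes of Ccl3, Ccl4 and Ccl9 turned under several alternatives.

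The estimated genotype effect was positive in pre-Baso and negative in basophils for 4 of the 5, all but Ccl5, although the sign for Ccl3 turned in each population without some single libraries. The difference itself (basophil effect minus pre-Baso effect) was -0.91 ± 0.25 for Ccl6, -0.76 ± 0.32 for Ccl4, -0.58 ± 0.23 for Ccl9 and -0.35 ± 0.32 for Ccl3 (SE; limma adjusted p from 0.839 to 0.965), and 0.39 ± 1.47 for Ccl5 (adjusted p = 0.997). No chemokine passed, and 0 of 12511 genes did in limma (0.0%), with 689 at an unadjusted p under 0.05. Ccl6, Ccl4 and Ccl9 had an unadjusted p under 0.05 (0.00663, 0.0444 and 0.0377). Without both basophil libraries numbered 1 the differences were -0.96 for Ccl6, -0.58 for Ccl4, -0.61 for Ccl9, -0.03 for Ccl3 and 0.27 for Ccl5, with 0 called. This difference equals the floxed out rise to basophils minus the control rise, so the smaller estimates in floxed out mice above are the same values, not further evidence. Non-overlapping libraries with opposite signs in the 2 populations were found for Ccl6, and for 1.68% of all genes.

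No other chemokine ligand was called in any of the 6 comparisons. Of 33 gene records of other ligands 17 were at 0 in every library, and 5 were tested in limma, with 0 called and 0 at an unadjusted p under 0.05. Between populations, 12.6% of all genes in controls and 6.79% in floxed out mice were called higher, and 10.0% and 4.11% lower. With 5 tested, 0 calls cannot be set apart from these shares. Ccl17, a ligand of Ccr4, had 4.51 and 8.78 TPM in control pre-Baso, 9.68 and 5.14 in floxed out pre-Baso, 2.02 and 4.53 in control basophils and 4.81 and 4.08 in floxed out basophils. Pf4, a platelet chemokine, was at 30.95 TPM in the second control pre-Baso library and at 9.78 TPM or less elsewhere. Their summed level over all other ligands was 8.53 to 44.0 TPM, against 309.6 to 2538 TPM for the 8 chemokines above.

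Receptors for the chemokines above were measured in the same cells. Of 24 receptors, 6 were tested and 3 rose from pre-Baso to basophils in both genotypes (12.6% and 6.79% of all genes called higher). Over the 6 tested, the median log2 changes were 1.18 in controls and 0.83 in floxed out mice. Without both basophil libraries numbered 1 these medians were 1.05 and 0.68. Cxcr2, the receptor for Cxcl2, rose by 2.32 ± 0.28 (log2) in controls and 1.90 ± 0.28 in floxed out mice (SE; limma adjusted p = 0.00114 and 0.00773). The Ccl2 receptor Ccr2 rose from 7.77 and 9.18 TPM to 29.8 and 30.3 TPM in controls (1.72 ± 0.16, adjusted p = 0.000473), and by 1.35 ± 0.16 in floxed out mice (adjusted p = 0.0047). Ccr3, the eotaxin receptor, rose by 1.70 ± 0.18 and 1.04 ± 0.18 (adjusted p = 0.000759 and 0.0126), to at most 4.90 TPM. Ccr1, the receptor for Ccl3, Ccl6 and Ccl9, stood at 27.2 to 35.6 TPM in basophils and at 30.0 TPM or less in pre-Baso, and was not called. Cxcr4, which holds cells in the marrow, stood at 45.8 to 62.8 and 34.8 to 56.9 TPM and was not called. Cxcr2 is also a neutrophil marker and Ccr3 an eosinophil marker, and the part of those cells in these values was not tested.

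Part of the NF-kappaB pathway genes were called higher in basophils as well. Of 17 tested subunits and feedback genes, 7 rose and 0 fell in control mice, and 7 rose and 0 fell in floxed out mice, with medians of 0.59 and 0.54. Over all genes, 12.6% and 6.79% were called higher. Without both basophil libraries numbered 1, the medians were 0.50 and 0.54. In each genotype 16 of the 17 changes were positive, with and without those libraries. Calls in the receptor, pathway and basophil identity lists come from the fit with all libraries. The reduced fit is given there only by log2 changes and their signs. Tnfaip3, which encodes the feedback inhibitor A20, rose by 1.76 ± 0.25 and 1.13 ± 0.25 (SE; limma adjusted p = 0.00237 and 0.028). Nfkbia, the inhibitor I-kappaB alpha, rose by 0.84 ± 0.16 and 0.69 ± 0.16 (adjusted p = 0.00883 and 0.0335). The subunit gene Rela was called in floxed out mice at 0.66 ± 0.17 (adjusted p = 0.0402).

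Of 16 tested immediate early and calcineurin target genes, 10 rose in controls and 8 in floxed out mice, with 0 falling (12.6% and 6.79% of all genes called higher). Their medians were 0.87 and 0.80, and 0.94 and 0.88 without both basophil libraries numbered 1. Positive changes numbered 15 in controls and 16 in floxed out mice, and 11 and 16 without those libraries. Zfp36, whose protein binds AU-rich elements and speeds decay of cytokine messages, rose by 2.51 ± 0.29 and 2.28 ± 0.29 (SE; limma adjusted p = 0.00102 and 0.00508). The AP-1 subunit gene Junb rose by 1.97 ± 0.24 and 1.70 ± 0.24 (adjusted p = 0.00129 and 0.00743). Of 9 tested inducible cytokines 6 rose in controls and 3 in floxed out mice, with medians of 0.98 and 0.59. Without both basophil libraries numbered 1 these medians were 0.93 and 0.74. Il4, the cytokine basophils are best known for, rose from 38.1 and 43.4 TPM to 99.4 and 103.1 TPM in controls (adjusted p = 0.00099) and by 0.77 ± 0.15 in floxed out mice (adjusted p = 0.0186). Csf1 rose by 1.37 ± 0.19 and 1.19 ± 0.19 (adjusted p = 0.00211 and 0.00951).

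Interferon response genes rose in 9 of 16 in controls and 3 of 16 in floxed out mice, with 0 falling. Over all genes, 12.6% and 6.79% were called higher. Among those that rose were Rtp4 (1.75 ± 0.20 and 1.36 ± 0.20, SE, limma adjusted p = 0.001 and 0.00813) and Isg15 (1.70 ± 0.31 and 1.26 ± 0.31, adjusted p = 0.00652 and 0.0362). The medians of the interferon response genes were 0.92 and 0.70, and 0.76 and 0.58 without both basophil libraries numbered 1. None of these 4 gene lists, and none of the receptors, held a gene called between genotypes in limma, with 0 to 3 of a list at an unadjusted p under 0.05. Of all 12511 genes, 548 to 1065 were at an unadjusted p under 0.05 in these genotype comparisons. The medians of all genes tested were 0.08 in controls and 0.10 in floxed out mice, and 0.04 and 0.14 without both basophil libraries numbered 1. The difference between genotypes in the number of calls was not tested. These lists also held genes that other myeloid cells express, and in controls 16 of 19 NF-kappaB genes and 19 of 24 immediate early genes were higher in the basophil library numbered 1 than in number 2. In floxed out mice these counts were 11 and 7, and the part of other cells in these lists was not tested.

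Of 18 genes of basophil identity, 3 rose and 5 fell in controls, beside 12.6% of all genes called higher and 10.0% called lower. The counts in floxed out mice were 3 and 4, beside 6.79% and 4.11%. The median log2 changes over the 18 were 0.09 and 0.17, and 0.09 and 0.26 without both basophil libraries numbered 1. The granule protease genes Prss34 and Cpa3 fell in controls, by 2.67 ± 0.29 and 1.78 ± 0.20 on the log2 scale (SE; limma adjusted p = 0.000814 and 0.000908), and Ms4a3, a marker of granulocyte and monocyte progenitors, by 2.98 ± 0.26 (adjusted p = 0.000415). Csf2rb, the common beta chain of the IL-3 receptor, rose by 1.42 ± 0.19 in floxed out mice (adjusted p = 0.00577). Between genotypes, limma called 1 of the 18 lower in floxed out mice in pre-Baso, 1 in basophils and 1 in the mean of both populations. The 18 include Mcpt8, which was far lower in all floxed out libraries, where its loss and Nfil3 depletion cannot be told apart. Over all genes, 0.0639%, 0.056% and 0.0879% were called in either direction. In the marker lists of other cells, calls higher and lower in controls were 4 and 0 of 12 for monocytes and macrophages, 7 and 1 of 13 for neutrophils, 2 and 0 of 8 for eosinophils and 4 and 0 of 6 for erythroid cells. They were 1 and 0 of 5 for B and plasma cells, 1 and 0 of 3 for megakaryocytes and platelets, 0 and 1 of 2 for T and NK cells and 0 of 5 for dendritic cells (2 at an unadjusted p under 0.05). In floxed out mice limma called 0 monocyte and macrophage, erythroid, B cell and dendritic cell markers (4, 4, 1 and 1 at an unadjusted p under 0.05), with 4 and 1 for neutrophils, 2 and 0 for eosinophils, 1 and 0 for megakaryocytes and platelets, and 0 and 1 for T and NK cells. Between populations, an unadjusted p under 0.05 in limma was found for 4524 of 12511 genes in controls and for 3517 in floxed out mice. Of 8 mast cell marker records 5 were at 0 in every library, 1 was tested and 0 were called.

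For each tested chemokine, the genes with the most similar profile were found among 4033 protein-coding genes whose mean over the 8 libraries was 5 TPM or more. Likeness was the root mean square difference of centred log2(TPM + 1) over the 8 libraries, which share their groups, and smaller means more alike. Ccl3 was nearest to Rasa3 (0.096), Ogt (0.106) and Arhgap45 (0.112). Ccl4 was nearest to Grina (0.153), to its cluster neighbour Ccl9 (0.16) and to Ltb, which encodes lymphotoxin beta (0.166). Ccl9 was nearest to Vopp1 (0.14), L1cam (0.146) and Ppcdc (0.159). Ccl6 had no gene as close, with Samhd1, a dNTP hydrolase gene, at 0.19, Slfn2 at 0.273 and Mapk12 at 0.286. Samhd1 had mean levels of 4.48 TPM in control pre-Baso, 7.55 in floxed out pre-Baso, 62.7 in control basophils and 39.8 in floxed out basophils, the order of groups seen for Ccl6. Ccl5 was far from all candidates, with Ctss at 0.583 and the complement genes C1qa and C1qc at 0.817 and 0.828.

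The annotated genes directly beside the cluster were listed at 0. Heatr9 and the snRNA gene Gm23247, beside Ccl5, and the pseudogene Gm11433, beside Ccl4, were listed at 0 in all 8 libraries. The noncoding E230016K23Rik, which overlaps Ccl6, stood at 0 to 0.598 TPM, and Rpl9-ps1, between Ccl6 and Ccl3, at 2.59 to 9.23 TPM. Farther out on the Ccl4 side, Wfdc21 stood at 26.0 to 47.2 TPM in pre-Baso and 41.1 to 93.6 TPM in basophils, above Ccl4 in 2 of the 4 pre-Baso libraries. Wfdc17 stood at 24.8 and 29.0 TPM in the basophil libraries numbered 1, at 0 in those numbered 2 and at 4.10 TPM or less in pre-Baso. Reads were assigned without strand, so antisense signal within Ccl6 cannot be told apart from Ccl6. The protein-coding transcripts of the chemokines share few exact runs of sequence: the longest run was 25 bases between Ccl6 and Ccl9 and 9 to 13 bases for each other pair, in GENCODE M21 transcripts.

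**Figure D5:**
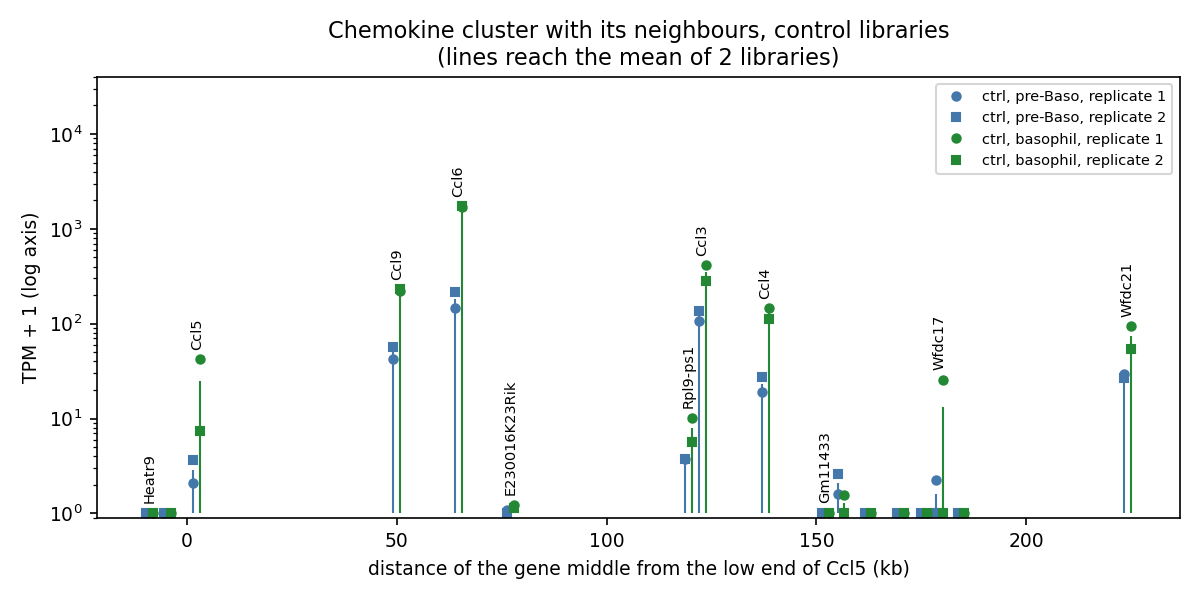
TPM + 1 (log axis) of annotated genes along the chromosome 11 cluster in the 4 control libraries, placed by distance in kb of the gene's middle from the low end of Ccl5; points are libraries and lines reach the mean. Ccl9, Ccl6, Ccl3 and Ccl4 stand above the genes between and directly beside them in both populations.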

How the data were processed

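RNA from 8 libraries of sorted bone marrow cells was measured, 2 per group. Per the labels' protocols, libraries were prepared from total RNA by a SMARTER kit. The submitters' processing notes name HISAT2 and the build mm10; the HISAT2 version is not given in the sources used here. Per the file headers, StringTie 2.1.4 quantified annotated transcripts of Ensembl release 101 with no strand option. The deposited files give TPM, FPKM and mean per-base coverage per transcript, and no read counts, so precision is given by the spread between libraries. Genes annotated as microRNA took 57.4% to 62.8% of the TPM and protein-coding genes 18.7% to 22.4%, so a TPM of 1 stands for a larger share of messenger RNA than in a library without them.

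Transcript TPM was summed per gene, matched by gene identifier because StringTie leaves the reference gene name out where a gene has no reads. The 12511 genes that reached a TPM of 1 in 2 or more libraries were analysed as log2(TPM + 1), on which changes of low genes come out too small. The fit, by limma 3.58.1 (R 4.3.3), used 4 group means and a variance trend over the 8 libraries together and left 4 residual degrees of freedom. The 6 contrasts were each adjusted over all genes by the Benjamini-Hochberg method, two-sided, and called at an adjusted p under 0.05. On simulated data for the control population contrast with 12511 genes, 100 genes were given a log2 change of 1 and 100 a change of 2. They were drawn from genes above a minimum mean level, with normal noise of the fitted spread. The fit recovered 60% of the changes of 1 and 98% of the changes of 2, with 5.39% false calls. Far more genes were called in the real contrast, so these rates need not hold there or for low genes. Motifs were searched in RefSeq promoter sequence with Python 3.11.15.

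The chemokines and the 17 gene lists, these among them, were chosen with earlier results of these data known. Genes named beside the chemokines were, per list and contrast, up to 4 called genes with the smallest adjusted p. Ligands and receptors with a group mean of at least 5 TPM, the most abundant markers of other cells, the 3 genes nearest in profile and the neighbours in the cluster were named too. Cd200r3, C1qb, Csf1r, H2-Aa, Wfdc17 and Wfdc21 were chosen after their values were seen. Alternatives were other pseudocounts, filters and scalings, FPKM, robust moderation, only the compared groups, a replicate block and leaving out each library, plus, chosen after seeing the data, leaving out both basophil libraries numbered 1.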

Additional observations from a re-analysis of the deposited data

Results flagged for a closer look

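Ccl6 had genotype differences of opposite sign in the 2 populations. Neither was called by limma (adjusted p = 0.991 in pre-Baso and 0.698 in basophils). Both floxed out libraries lay above both controls in pre-Baso (248.8 and 289.8 against 143.9 and 215.5 TPM). In basophils both lay below both controls (1433 and 1348 against 1713 and 1726 TPM). The difference of the log2 effects was -0.91 ± 0.25 (SE), and by limma's interaction term it did not pass over all genes (adjusted p = 0.839, unadjusted p = 0.00663). Leaving out single libraries gave differences from -1.20 to -0.62. The same pattern of libraries was found in 210 of 12511 genes (1.68%).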

How the results depend on the processing

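Of 560 values of single chemokines under alternatives, 515 kept their direction and their side of the threshold, 11 lost a call, 2 gained one and 32 turned sign, 0 of those among called values. In floxed out mice the 4 chemokines called between populations became 0 to 5: 1 without the first floxed out pre-Baso library (range over single libraries left out, 1 to 4) and 0 without both basophil libraries numbered 1. The 2 gained calls were those of Ccl5, with a mean TPM of at least 5 required (3.07, limma adjusted p = 0.0483, floxed out) and without the second control basophil library.

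Sign turned between genotypes for Ccl3 in basophils without both libraries numbered 1 (0.0851). In the mean of both populations it turned for Ccl4 with a pseudocount of 0.1 (0.0032), for Ccl3, Ccl4 and Ccl9 with FPKM (0.0025, 0.0661 and 0.0507), for Ccl4 and Ccl9 rescaled to protein-coding genes (0.0587 and 0.0414) or by median of ratios (0.0319 and 0.0179), and for Ccl3 and Ccl4 without both libraries numbered 1 (0.0991 and 0.0898). The cause was not tested. Leaving out single libraries moved Ccl3 from -0.11 to 0.33 in pre-Baso, from -0.52 to 0.0352 in basophils and from -0.20 to 0.0741 in the mean. Ccl5 moved from -1.47 to 0.36 in pre-Baso, from -1.54 to 1.20 in basophils, from -1.04 to 0.32 in the mean and from -0.98 to 1.75 in the difference between populations. In the mean, Ccl4 moved from -0.13 to 0.13 and Ccl9 from -0.12 to 0.0869.

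Counts over all genes moved more. Between populations, 2832 calls in controls became 1516 without a filter, 1032 without both libraries numbered 1 and 1397 to 1870 without single control libraries. In floxed out mice 1363 became 298 without a filter, 562 with only the compared groups, 4 without both libraries numbered 1 and 19 to 658 without single floxed out libraries. Between genotypes, counts lay between 3 and 23 in pre-Baso, between 4 and 18 in basophils and between 5 and 19 in the mean, and 0 to 2 genes had a called difference between populations. The median change of all genes in pre-Baso moved to -0.14 without the first control library, and in floxed out mice between populations to 0.0 without a filter.

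Replicate numbers are shared by the groups. Over 5563 genes, same-numbered deviations correlated at 0.253 between control and floxed out basophils. For the other pairs of groups the correlations were -0.085 to 0.063. The numbers were not taken to pair the libraries in the main fit. With a replicate block, 4 chemokines were called between populations in each genotype and 0 between genotypes, and calls over all genes in the mean of both populations went from 11 to 7. Depth could not be weighed for single genes because no counts were used.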
